A study of Mus musculus with 9 samples.

Results

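Oxidative phosphorylation is carried out by protein complexes whose subunits come from both cell genomes, and the transcripts of these genes were followed here through muscle differentiation in cultured mouse cells. Members were the protein-coding genes whose symbols begin with Nduf, Uqcr, Cox4 to Cox8 or Atp5, the genes Sdha to Sdhd, and the mitochondrially encoded subunits. This gave 106 of the 47729 genes in the count table, 93 encoded in the nucleus and 13 in the mitochondrion. A further 11 symbols with the same beginnings were processed pseudogenes and were left out. The nuclear members comprised 38 of complex I, 8 assembly factors of complex I, 4 of complex II, 8 of complex III, 18 of complex IV and 17 of complex V. Complexes were assigned by symbol, so Ndufa4 and Ndufa4l2 were counted with complex I, although Ndufa4 is now known as a subunit of complex IV. The mitochondrial members comprised 7 of complex I, 1 of complex III, 3 of complex IV and 2 of complex V.

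The cells were C2C12, a mouse myoblast line that fuses into myotubes when serum is lowered. The groups were cells carrying a non-target guide RNA, called WT here, cells in which Per1 had been targeted with CRISPR-Cas9 (Per1KO), and cells in which Per2 had been targeted in the same way (Per2KO). All were grown in 10% fetal bovine serum and then differentiated in 5% horse serum. RNA was taken on days 0, 3 and 5, with 1 library for each genotype and day. Whether a knockout population was 1 clone or a pool was not given. The sample labels name whole muscle as the tissue, while the growth protocol describes the cell line. With 1 library per genotype and day, day effects were estimated over the 3 genotypes and genotype effects over the 3 days, and the p-values measure the spread left by that additive model.

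Electrons from NADH enter the respiratory chain at complex I and those from succinate at complex II. They pass through ubiquinone to complex III, through cytochrome c to complex IV, and reach oxygen. Complexes I, III and IV move protons across the inner membrane, and complex V, the ATP synthase, uses their return to make ATP. Complex II is built wholly from nuclear genes, whereas each of the other complexes combines mitochondrially encoded subunits with nuclear ones. Skeletal muscle is rich in mitochondria, and some complex IV subunits exist as a widely expressed form and a heart and muscle form.

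The mitochondrial genes are compact and have long copies in the nuclear genome, and their sequences bear on how reads were assigned. mt-Atp8 (chromosome M, positions 7766 to 7969, plus strand, build GRCm38) encodes a small subunit of the membrane part of ATP synthase. Its last 43 bases, in capitals, are also the first bases of mt-Atp6.
mt-Atp8: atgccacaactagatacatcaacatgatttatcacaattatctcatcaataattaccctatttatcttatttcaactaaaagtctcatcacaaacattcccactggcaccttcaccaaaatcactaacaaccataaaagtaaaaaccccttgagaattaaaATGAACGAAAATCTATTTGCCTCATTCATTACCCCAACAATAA

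mt-Nd3 (chromosome M, positions 9459 to 9806, plus strand) and the nuclear gene Gm28438 were identical at 344 of 345 aligned bases. The one difference, T3C counted from the first base of mt-Nd3, is capitalised in the first 60 bases of each.
mt-Nd3: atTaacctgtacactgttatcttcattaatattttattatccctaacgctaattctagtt
Gm28438: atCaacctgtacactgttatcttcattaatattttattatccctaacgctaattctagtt

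A read from such a stretch cannot be assigned to one copy by sequence. Shared sequence was measured as the percent of a member's 31-base words present in the longest transcript of any other gene. It was 100% for mt-Co2, 99.9% for mt-Co3, 99.5% for mt-Atp6, 98.9% for mt-Nd4l and 98.1% for mt-Nd3. The values were 63.9% for mt-Co1 and 62.8% for mt-Nd4. mt-Nd5 had 16.8% and mt-Nd2 13.5%, and mt-Atp8, mt-Nd6, mt-Cytb and mt-Nd1 were below 10%. Of the 93 nuclear members, 28 shared at least 10% of these words with another gene. mt-Nd6 is the member on the minus strand of the mitochondrial chromosome (positions 13552 to 14070) and overlaps the end of mt-Nd5. Whether counting used strand was not given, so mt-Nd6 reads cannot be told apart from other transcripts crossing that interval.

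The WT libraries held 5020385 to 6773320 counts and the knockout libraries 41997763 to 48051824, on average 7.82 times as many. Levels are given as CPM, counts scaled to a common library size with edgeR's TMM factors. The titles of the WT samples carry a suffix that those of the knockouts lack. It may name a sequencing lane, but its meaning was not given. Depth, whatever the suffix marks, and genotype cannot be told apart. Per1 was not called lower in either knockout (edgeR adjusted p of 0.310 in Per1KO and 0.232 in Per2KO against WT). Per2 was lower in Per2KO by a log2 change of -1.02 ± 0.24 (SE, edgeR adjusted p = 0.0230), and no tested gene, Per1 and Per2 included, passed the edgeR test between the knockouts (88 at an unadjusted p under 0.05, and 1 gene with DESeq2). Transcript levels of the targets therefore did not tell the libraries labelled Per1KO and Per2KO apart. All 10 myotube markers rose and all 4 growth markers fell from day 0 to day 5, and each of the marker lists of macrophages, endothelium, adipocytes and glia summed to at most 2.86 CPM in any library. Myotube markers summed to 763, 17550 and 19860 CPM on days 0, 3 and 5 in WT, to 109, 7780 and 13010 in Per1KO, and to 71.9, 7181 and 10630 in Per2KO.

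The mitochondrially encoded transcripts rose during differentiation. All 13 were higher on day 5 than on day 0 (edgeR quasi-likelihood test on counts, Benjamini-Hochberg adjusted p under 0.05 over 13324 genes), with a median log2 change of 1.02 and a range of 0.59 to 1.82. Of all tested genes, 46.1% passed this test, 23.2% upward and 22.9% downward, and the median change over all genes was -0.01. In bulk RNA, a larger part of the cells expressing a gene and more RNA per cell cannot be told apart. Their summed level, in CPM, was 7896, 16350 and 24480 on days 0, 3 and 5 in WT. It was 13150, 17080 and 23630 in Per1KO, and 13220, 19400 and 22650 in Per2KO. The day 0 value was lowest in WT, and the 3 day 5 values lay close together. Each of the 13 genes was at its highest on day 5 in each genotype, whereas 34.4% of all tested genes in WT, 35.8% in Per1KO and 34.5% in Per2KO were highest on that day.

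**Figure D1:**
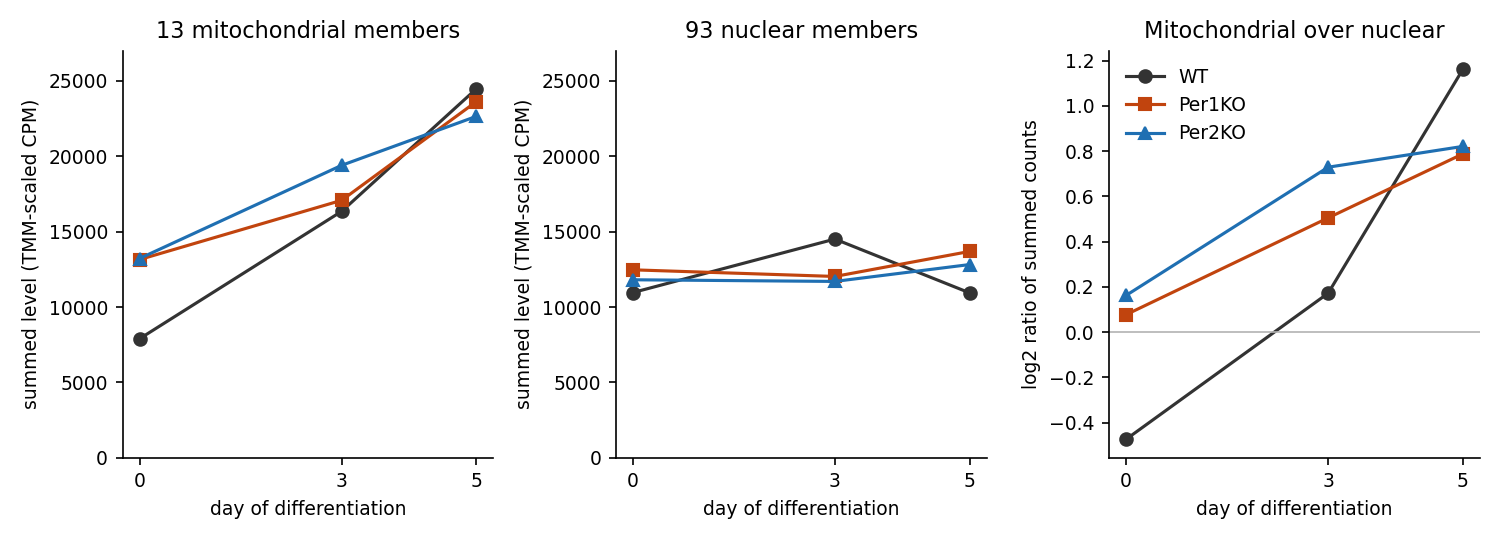
Summed CPM of the 13 mitochondrial and the 93 nuclear members on days 0, 3 and 5, with 1 point per library and 1 line per genotype. The mitochondrial sums are higher on day 5 than on day 0 in all 3 genotypes, and the WT nuclear sum is highest on day 3.

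Among the mitochondrial genes of complex I, mt-Nd6 and mt-Nd5 had the largest changes by day 5 and mt-Nd1 the smallest. mt-Nd6 was at 169.9, 447 and 820.5 CPM on days 0, 3 and 5 in WT, at 264.6, 444 and 765 in Per1KO, and at 228, 573 and 729 in Per2KO. The day 0 library was lowest and the day 5 library highest in each genotype, and day 5 exceeded day 0 by 1.82 ± 0.19 (log2, SE, edgeR adjusted p = 1.82e-04), or 3.53-fold. mt-Nd5, part of the proton-pumping arm, was at 710, 1915 and 3036 CPM in WT, 1120, 1901 and 2916 in Per1KO and 989, 2314 and 2816 in Per2KO. Its log2 change by day 5 was 1.66 ± 0.18 (edgeR adjusted p = 2.77e-04). mt-Nd4 rose by 1.51 ± 0.16 and mt-Nd2 by 1.14 ± 0.19. mt-Nd1, which lies next to the ribosomal RNA genes, was at 1355, 2438 and 3545 CPM in WT, 2238, 2098 and 2850 in Per1KO, and 2182, 2420 and 2756 in Per2KO. Its log2 change was 0.67 ± 0.23 (edgeR adjusted p = 0.0408), and in Per1KO its day 3 value lay below its day 0 value. The call on mt-Nd1 was lost whichever of the 9 libraries was left out (edgeR adjusted p of up to 0.118), and those on mt-Nd3, mt-Atp6 and mt-Atp8 without some of them, while the other 9 mitochondrial calls held each time.

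mt-Cytb, the mitochondrial subunit of complex III, was at 1725, 3824 and 6312 CPM in WT. It was at 2693, 3617 and 5341 in Per1KO and 2786, 4070 and 4990 in Per2KO, and rose by 1.22 ± 0.21 (log2, SE, edgeR adjusted p = 0.00255). mt-Co1, the catalytic subunit of complex IV, was the most abundant member. Its level was 2960, 5651 and 7542 CPM in WT, 5074, 6687 and 7947 in Per1KO, and 5256, 7184 and 7751 in Per2KO, a log2 rise of 0.85 ± 0.18 (edgeR adjusted p = 0.00697). Values on day 0 lay below those on day 3 and day 5 in each genotype for both genes. mt-Co2, mt-Co3, mt-Atp6, mt-Nd3 and mt-Nd4l were counted at far lower levels. Per kilobase, the WT day 5 library had 4881 CPM for mt-Co1 and 5518 for mt-Cytb, against 42.4 for mt-Co2, 24.7 for mt-Co3, 30.0 for mt-Atp6, 11.8 for mt-Nd4l and 4.42 for mt-Nd3. These 5 genes are the ones whose 31-base words were over 95% shared with another gene. mt-Atp8, with 7.47% shared, was nearly as low, at 47.4 CPM per kilobase in the WT day 5 library.

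By day 3 the rise had passed the test for 6 of the 13 (edgeR adjusted p under 0.05, against 35.0% of all genes called, 18.1% upward and 16.9% downward): mt-Nd4, mt-Nd5, mt-Nd6, mt-Cytb, mt-Co1 and mt-Co3. Their log2 changes were between 0.58 and 1.15. The mt-Co1 call was lost on leaving out any library but WT day 5 (edgeR adjusted p of up to 0.158) and the mt-Cytb call without 6 of the 9 (up to 0.150), while the other 4 held. Between day 3 and day 5 none of the 101 tested members passed, where 1.79% of all genes did, 0.698% upward and 1.09% downward. At an unadjusted p under 0.05, 10 members were higher on day 5 than on day 3, 7 of them mitochondrial, and DESeq2 called 3 members, all mitochondrial. Counts of both ribosomal RNAs of the mitochondrion also rose from day 0 to day 5, mt-Rnr1 by 1.32 and mt-Rnr2 by 0.67 (log2, edgeR). The RNA was poly(A)-selected, and the part of that selection in these ribosomal RNA counts was not tested.

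The balance between the genomes was then compared across days. The log2 ratio of summed mitochondrial to summed nuclear counts was -0.47, 0.17 and 1.16 on days 0, 3 and 5 in WT, 0.08, 0.51 and 0.79 in Per1KO, and 0.16, 0.73 and 0.82 in Per2KO. On the linear scale the WT ratio went from 0.720 on day 0 to 2.24 on day 5. Day 0 was lowest in each genotype, and the mean of days 3 and 5 exceeded day 0 by 0.77. The exact permutation test of the day 0 label within genotypes gave p = 0.037, two-sided, the smallest value its 27 arrangements allow, and 0.0741 after adjustment over the 2 ratio tests. With only members below 10% shared sequence the difference was 0.74 and the exact permutation p 0.0741. The knockouts exceeded WT by 0.23 as a mean over the 3 days (exact permutation p = 0.296). The difference was positive on days 0 and 3 and negative on day 5 in both knockouts. WT was thus lowest on days 0 and 3 and highest on day 5. Because the tested mean joins differences of opposite sign, it does not address the single days.

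A smaller part of the nuclear members passed the test. On day 5, 18 of the 88 tested (20.5%) were higher than on day 0 and none was lower, with a median log2 change of 0.19 (edgeR). The share called higher was near the 23.2% of all genes, while 22.9% of all genes were called lower. At an unadjusted p under 0.05, 3 members were lower, and DESeq2 called 2 lower. The summed nuclear level was 10960, 14510 and 10940 CPM on days 0, 3 and 5 in WT, 12470, 12030 and 13690 in Per1KO, and 11810, 11700 and 12820 in Per2KO. The log2 change of this sum from day 0 to day 5 averaged 0.08 ± 0.08 (SD, n = 3 genotypes) in scaled CPM and -0.08 as a plain share of counts, so its direction depended on the scaling. The mitochondrial sum changed by 1.09 ± 0.48 on the same scale. As shares of counts, nuclear members made up 1.15%, 1.38% and 0.991% of the WT libraries on days 0, 3 and 5, and mitochondrial members 0.825%, 1.55% and 2.22%.

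**Figure D2:**
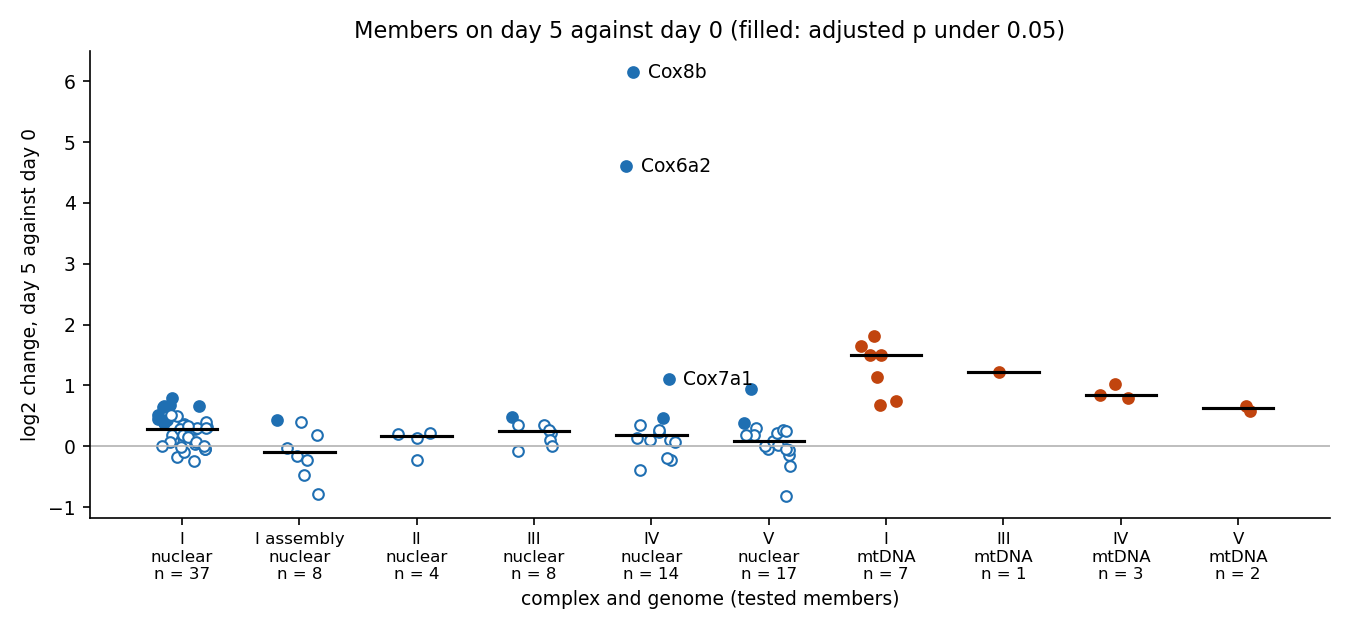
Log2 change from day 0 to day 5 (edgeR, all 9 libraries) for each tested member, by complex and genome, with called members marked and the median of each group drawn. The mitochondrial members all lie above 0, with a median of 1.02, and most nuclear members lie within 1 unit of 0.

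In complex I, 10 of 37 tested nuclear subunits (27%) were higher on day 5, with a median log2 change of 0.29. In complex IV the share was 4 of 14 (28.6%), and both were near the 23.2% of all genes. Ndufa13, an accessory subunit, was at 66.9, 129 and 119.6 CPM on days 0, 3 and 5 in WT, 77.5, 114 and 144 in Per1KO and 86.8, 107 and 136 in Per2KO. Day 0 was lowest in each genotype, and the log2 change by day 5 was 0.79 ± 0.14 (SE, edgeR adjusted p = 0.00294). Ndufs1, which carries iron-sulfur clusters, rose by 0.37, Ndufs3 by 0.66, Ndufa3 by 0.66, Ndufb2 by 0.65 and Ndufv3 by 0.52. Ndufa6, Ndufb4 and Ndufa11 rose by 0.45, 0.44 and 0.38. Leaving out 1 library at a time, the Ndufa13 and Ndufv3 calls held, the Ndufs1 call was lost without 7 of the 9 libraries (edgeR adjusted p of up to 0.229), the Ndufb4 call without 8 (up to 0.233) and the Ndufb2 call without Per1KO or Per2KO day 5. Ndufv1, which holds the flavin that accepts electrons from NADH, changed by 0.34 without passing (edgeR adjusted p = 0.0598), and Ndufs6 changed least, by -0.00.

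Of the 8 Ndufaf assembly factors, which help build complex I without staying in it, Ndufaf3 rose by 0.44 and the median was -0.09. Ndufaf5 had the most negative value, -0.79 (edgeR adjusted p = 0.0549). None of the 4 complex II genes passed (edgeR, 0 also at an unadjusted p under 0.05 and with DESeq2). Sdha, the flavoprotein that oxidises succinate, had a log2 value of 0.14, Sdhb -0.23, Sdhc 0.21 and Sdhd 0.20.

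In complex III, 1 of 8 passed (12.5%). Uqcrh, a small hinge subunit, was at 120.6, 191 and 148 CPM in WT, 150.1, 190.6 and 195 in Per1KO and 107, 184 and 182 in Per2KO, and rose by 0.48 (edgeR), a call lost without Per1KO day 5, Per2KO day 0 or Per2KO day 5. Uqcrfs1, the Rieske iron-sulfur protein, had a log2 value of 0.35 (edgeR adjusted p = 0.0608), and the core proteins Uqcrc1 and Uqcrc2 had -0.07 and 0.11. In complex V, 2 of 17 passed (11.8%), also below the 23.2% of all genes. Atp5e, the small epsilon subunit, rose by 0.39. Atp5s, coupling factor B, rose by 0.95 ± 0.22 (SE, edgeR adjusted p = 0.00886) from 3.57 to 5.04 CPM on day 0 to 5.50 to 9.73 CPM on day 5, a call lost without Per1KO day 0 or day 5. Atp5a1 and Atp5b, which form the catalytic head, had log2 values of -0.05 and -0.15. Atp5b was at 2443, 2638 and 1857 CPM in WT, 2770, 2346 and 2746 in Per1KO and 2662, 2289 and 2553 in Per2KO, without a shared direction. The median log2 change was 0.17 for complex II, 0.25 for complex III, 0.19 for complex IV and 0.08 for complex V.

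The WT series set the nuclear members apart on day 3. In WT, 80 of the 88 tested nuclear members were at their highest on day 3, 90.9%, where 27.7% of all tested genes were. In Per1KO 5 were highest on day 3, 62 on day 5 and 21 on day 0, and in Per2KO the counts were 5, 59 and 24. By complex, the summed nuclear level on day 3 exceeded that on day 0 in WT by 0.58 (log2) for complex I, 0.19 for II, 0.51 for III, 0.55 for IV and 0.27 for V. In Per1KO the same differences were 0.09, 0.03, -0.03, 0.07 and -0.17, and in Per2KO 0.01, 0.09, -0.01, 0.10 and -0.07. On day 3 the WT sums of complexes I to V thus stood above those of both knockouts relative to day 0, least so for complex II. This rests on 1 WT library for day 3, and has no test.

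**Figure D3:**
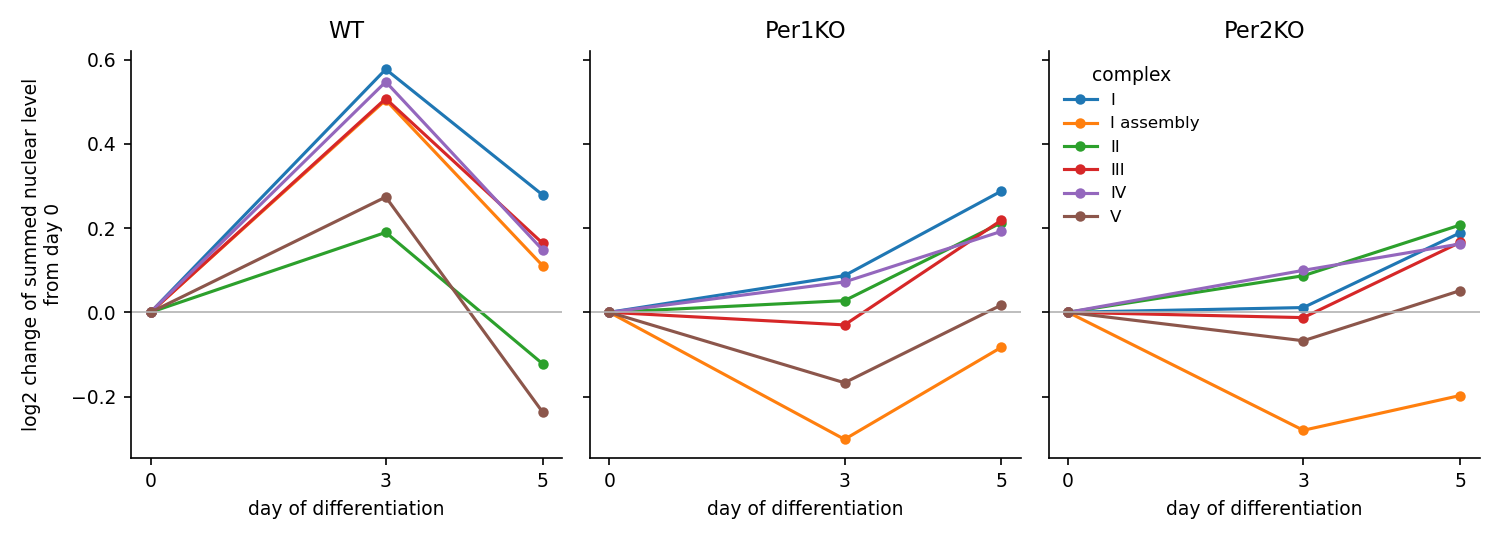
Log2 change of the summed CPM of each complex's nuclear members from day 0, on days 3 and 5. There is 1 panel per genotype and 1 line per complex, with the assembly factors of complex I apart. The WT values on day 3 lie between 0.19 and 0.58 for complexes I to V and above those of both knockouts.

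The day 3 maximum in WT also went with transcript length among other genes. It was held by 46.3% of other tested genes with a longest transcript under 1 kb, 37.0% of those from 1 to under 3 kb, and 17.8% of those of 3 kb or more. The nuclear members were above these shares in every class, with 35 of 39, 36 of 40 and 9 of 9. In Per1KO the shares of other genes ran from 15.4% to 22.9% in the same order of classes, and in Per2KO from 16.1% to 24.0%. The part of transcript length in the WT day 3 level was not tested. The day of the maximum and its split by length were chosen for display after the values had been seen.

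With the WT libraries left out, 41 nuclear members were higher and 10 members lower on day 5 than on day 0 (edgeR on 6 libraries), against 4166 higher and 4175 lower of 12905 genes. With the WT day 3 library alone left out, 32 nuclear members were higher, against 3476 of 13157 genes. Without the Per1KO day 5 library 5 were higher, against 1993 of 13275 genes. The count of 18 thus moved with single libraries, while no call on a named member changed sign under the alternatives run.

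Cox8b and Cox6a2, heart and muscle forms of complex IV subunits, had the largest log2 changes of all members on day 5, and a further such form, Cox7a1, changed less. Cox8b (chromosome 7, positions 140898945 to 140900446, minus strand) was at 0.989, 17.5 and 25.3 CPM on days 0, 3 and 5 in WT. It was at 0, 6.65 and 14.2 in Per1KO and 0.236, 5.71 and 12 in Per2KO. Day 5 was highest in each genotype, and the fitted log2 change was 6.15 ± 0.61 (SE, edgeR adjusted p = 1.99e-04). Its share of the counts of Cox8b and the widely expressed Cox8a together was 15.5% in WT on day 5 (95% Clopper-Pearson interval 13% to 18.3%, counting error only), 6.18% in Per1KO and 5.20% in Per2KO. On day 0 it was 0.523% in WT, 0 of 8489 counts in Per1KO and 0.131% in Per2KO.

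Cox6a2 (chromosome 7, positions 128205435 to 128206387, minus strand) was at 1.84, 84.7 and 142 CPM in WT, 0.101, 8.26 and 18.0 in Per1KO and 1.89, 7.10 and 12.6 in Per2KO. It rose by 4.61 ± 0.78 (log2, SE, edgeR adjusted p = 0.00250). Its share of the Cox6a2 and Cox6a1 counts reached 48.4% in WT on day 5 (45.7% to 51.1%), 10.8% in Per1KO (10.0% to 11.5%) and 8.03% in Per2KO (7.38% to 8.72%). These intervals carry counting error only, and with 1 library each the genotypes were not tested. Cox7a1 was low, at 0.283, 1.46 and 1.54 CPM in WT, 1.85, 1.18 and 3.03 in Per1KO and 1.04, 1.51 and 2.68 in Per2KO. It rose by 1.11 ± 0.37 (edgeR adjusted p = 0.0417), a call lost without any one of 5 libraries (WT, Per1KO or Per2KO day 5, and Per2KO day 0 or day 3, adjusted p of up to 0.186), and its share of the Cox7a1 and Cox7a2 counts was at most 2.46% in any library.

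The widely expressed partners did not pass the day 5 test. Cox6a1 had a log2 value of -0.39 (edgeR adjusted p = 0.0764) and Cox8a 0.07. Cox7a2 was called higher on day 3 than on day 0, by 0.58 (edgeR adjusted p = 0.0320), a call lost without any one of 5 libraries. Among other complex IV subunits, Cox6c rose by 0.47. Cox4i1 was at 279 to 402 CPM over the 9 libraries and had a log2 value of 0.11, Cox5a -0.22, Cox5b 0.11, Cox6b1 0.23, Cox7b 0.26 and Ndufa4, counted here with complex I, -0.18. The alternative forms Cox4i2, Cox6b2, Cox7b2 and Ndufa4l2 were below the level filter, with at most 1.10 CPM in a library, and Cox8c was at 0 counts in all. A count of 0 allows up to 0.660 CPM in the shallowest WT library and 0.0731 CPM in the shallowest knockout library.

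**Figure D4:**
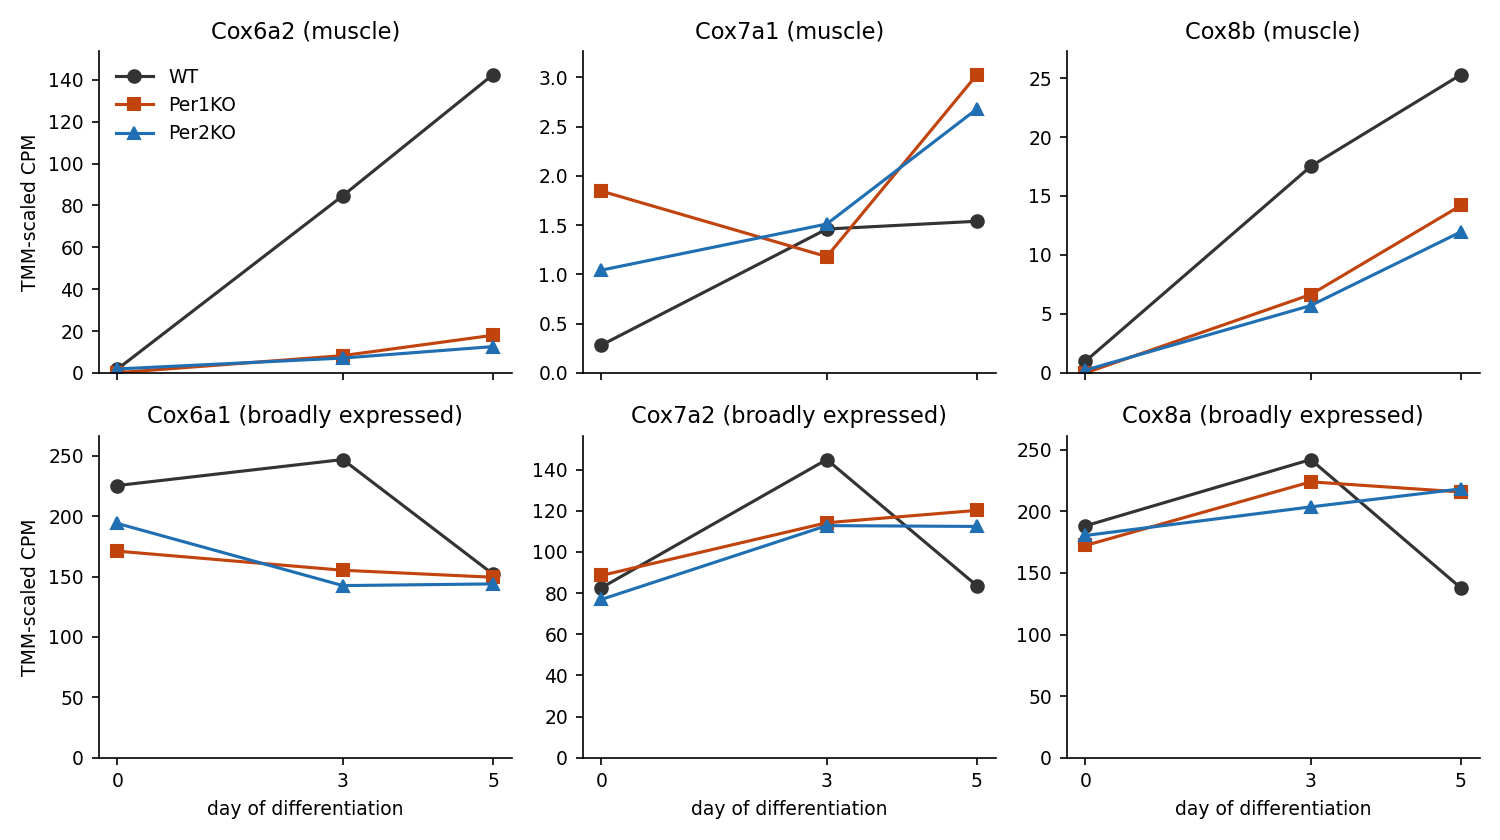
CPM of the muscle form (top) and the widely expressed form (bottom) of each complex IV isoform pair by day, with 1 line per genotype. On day 5 Cox6a2 is at 142.5 CPM in WT, 18.0 in Per1KO and 12.6 in Per2KO, and Cox7a1 stays at or below 3.03 CPM.

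The promoters of the Cox8 pair differ in the short motifs they hold, and are shown because these genes parted most on day 5. Sequences are from RefSeq (GRCm38.p6), 250 bases before to 50 after the start of the gene, and capitals mark matches to CANNTG, the E-box bound by myogenic factors, or to ACTTCCGG, bound by GABP. Cox8b is from chr7:140900397-140900696, minus strand, and Cox8a from chr19:7217567-7217866, minus strand.
Cox8b: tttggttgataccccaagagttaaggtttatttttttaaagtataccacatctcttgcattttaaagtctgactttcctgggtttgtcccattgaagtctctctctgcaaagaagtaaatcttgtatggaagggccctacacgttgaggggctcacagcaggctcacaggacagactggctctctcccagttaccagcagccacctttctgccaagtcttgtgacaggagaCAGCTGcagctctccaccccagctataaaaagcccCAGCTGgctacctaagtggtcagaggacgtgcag
Cox8a: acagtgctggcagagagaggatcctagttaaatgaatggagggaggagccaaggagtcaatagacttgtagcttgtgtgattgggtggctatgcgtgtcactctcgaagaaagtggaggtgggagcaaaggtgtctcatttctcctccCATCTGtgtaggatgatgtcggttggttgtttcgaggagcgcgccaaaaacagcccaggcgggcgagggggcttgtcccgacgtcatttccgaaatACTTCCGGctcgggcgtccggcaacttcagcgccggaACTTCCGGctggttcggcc

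Cox8b held CAGCTG at 2 places, 19 bases before and 16 after the start of the gene. Of the 93 nuclear members, 74 matched a promoter in the table. CAGCTG, read on both strands, was in 6 of them (8.11%) and in 18.1% of 9530 tested genes with a promoter, and any CANNTG, which includes CAGCTG, was in 71.6% and 66.8%. GCGCATG, the core of the site of nuclear respiratory factor 1, was in 15 (20.3%) against 8.12%, and the full palindromic site, which holds this core on both strands, in 7 (9.46%) against 2.39%. AAGATGGCG, a site of YY1, was in 8 (10.8%) against 3.74%. TCAAGGTCA, bound by estrogen-related receptors, was in 2 (2.7%) against 0.315%, and its core AAGGTCA in 8 (10.8%) against 3.65%. TATTTATA, bound by MEF2 factors, was in none against 1.31%. ACTTCCGG was in 5 (6.76%) against 9.39%. These are matches of letters in a fixed window and were not tested.

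Between genotypes, a few members stood apart and most did not. In Per1KO, 12 members were higher and 8 lower than in WT (edgeR adjusted p under 0.05), 19.8% of the 101 tested, where 19.3% of all genes were called, 9.26% upward and 10.1% downward. In Per2KO 10 were higher and 8 lower, where 19.9% of all genes were called, 9.31% upward and 10.6% downward. In the fit of all 9 libraries the shares were near the background. Leaving out the WT day 3 library changed the nuclear higher calls to 26 in Per1KO and 21 in Per2KO, against 1307 and 1228 of 13157 genes, so with that library left out the members' share lay well above that of all genes. Leaving out WT day 0 changed the members' lower calls to 14 and 17, against 1753 and 1838 of 13129 genes. No member differed between the knockouts (0 at an unadjusted p under 0.05, and 0 with DESeq2).

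Atp5g2 (chromosome 15, positions 102662864 to 102672352, minus strand), which encodes the c-ring subunit of ATP synthase, had the largest difference. It was at 51.5, 68.0 and 42.7 CPM on days 0, 3 and 5 in WT, at 2.47, 2.36 and 1.66 in Per1KO and at 5.08, 1.8 and 1.8 in Per2KO. The groups did not overlap, and the log2 differences from WT were -4.67 ± 0.36 in Per1KO (SE, edgeR adjusted p = 1.52e-04) and -4.32 ± 0.35 in Per2KO (edgeR adjusted p = 2.14e-04). The other c-ring genes, which encode the same mature protein, did not pass. Atp5g1 had -0.30 and -0.35, and Atp5g3, the most abundant at 372 to 578 CPM, had -0.13 and -0.23. With the counts of its copy Gm10175 added, Atp5g2 was still lower on each day, by a mean of -4.36 ± 0.24 (SD, n = 3 days) and -3.99 ± 0.76. Its promoter window (RefSeq, GRCm38.p6, chr15:102670998-102671297, minus strand) lies inside the gene positions given above, so the RefSeq start differs from theirs. The window holds the full site of nuclear respiratory factor 1 and a CANNTG match, in capitals.
Atp5g2: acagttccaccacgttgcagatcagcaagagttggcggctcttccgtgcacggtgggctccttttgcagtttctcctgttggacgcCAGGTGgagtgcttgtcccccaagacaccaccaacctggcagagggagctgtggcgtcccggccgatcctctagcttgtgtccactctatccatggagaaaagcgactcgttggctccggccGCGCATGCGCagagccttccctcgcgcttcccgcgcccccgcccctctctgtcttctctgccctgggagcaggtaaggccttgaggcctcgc

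Ndufb2, an accessory subunit of complex I (chromosome 6, positions 39592574 to 39603382), went the other way. It was at 10.0, 17.3 and 13 CPM in WT, 27.8, 40.9 and 43.6 in Per1KO and 24.7, 39.8 and 43.6 in Per2KO, and the groups did not overlap. The log2 differences were 1.47 ± 0.15 (SE, edgeR adjusted p = 4.77e-04) and 1.40 ± 0.15 (edgeR adjusted p = 5.99e-04). Uqcrb, the ubiquinone-binding subunit of complex III, was at 27.5, 49.6 and 37.8 CPM in WT and between 55.2 and 72.4 in the knockouts, with differences of 0.87 and 0.76. Cox7a2l, a factor of supercomplex assembly, was at 52.8 to 65.8 CPM in WT and 81.0 to 96.8 in the knockouts, with differences of 0.53 and 0.61. Sdha was at 292 to 312 CPM in WT and 373 to 461 in the knockouts, with differences of 0.44 and 0.47. Ndufb8 and Ndufb5 were also higher in both knockouts, by 0.74 and 0.52 in Per1KO. The calls on Ndufb2 held whichever library was left out, and those on Uqcrb, Cox7a2l, Sdha and Ndufb8 did not.

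Among lower members, Ndufb4 was at 14.3, 18.1 and 21.3 CPM in WT and between 5.90 and 8.94 in the knockouts, with log2 differences of -1.36 ± 0.16 and -1.40 ± 0.16 (edgeR). Adding its copy Ndufb4c left means of -0.95 ± 0.17 and -1.02 ± 0.24 (SD, n = 3 days). Ndufa2, Ndufa3, Ndufv3 and Atp5l were lower in both knockouts, by -0.50 to -0.77. Cox6a2 differed by -3.19 ± 0.69 in Per1KO (edgeR adjusted p = 0.0182) and -2.66 ± 0.76 in Per2KO (edgeR adjusted p = 0.0465), although on day 0 Per2KO was level with WT. In Per2KO the call was lost with DESeq2 (adjusted p = 0.119). It was lost in both knockouts without any one of the WT or Per1KO libraries of day 3 or day 5, with edgeR adjusted p of up to 0.103 in Per1KO and 0.289 in Per2KO. The sums of myotube markers were lower in the knockouts on each day as well, and their part in the Cox6a2 difference was not tested. Cox8b had -1.41 and -1.39 and did not pass.

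Several differences changed size once near-identical copies were counted together with the member, a sum chosen after the values had been seen. mt-Co3 was at 7.49, 13 and 19.4 CPM in WT, 38.2, 59.7 and 71.1 in Per1KO and 34.4, 61.0 and 64.9 in Per2KO, a log2 difference of 2.13 ± 0.14 and 2.05 ± 0.14 (SE, edgeR adjusted p of 7.67e-05 and 9.23e-05). It and Gm28437 are identical over 783 bases, and mt-Co3 held 11.8% to 15.6% of their joint counts in WT and 38.8% to 40.6% in the knockouts. The joint difference was 0.62 ± 0.26 in Per1KO and 0.56 ± 0.22 in Per2KO (SD, n = 3 days). mt-Nd3 was higher by 1.46 and 1.49, whereas with Gm28438 the differences were 0.07 ± 0.37 and 0.01 ± 0.36. mt-Atp6 was higher by 1.37 and 1.46, and with Gm10925 by 0.68 and 0.75. mt-Co2 and mt-Nd4l were not called. The mean difference of mt-Co2 over 3 days went from 0.59 and 0.61 to 0.30 ± 0.45 and 0.29 ± 0.47 with Gm28661. That of mt-Nd4l, on 6 to 16 counts in WT, was 0.28 and 0.37. With Gm10222 it was -0.65 ± 0.17 and -0.67 ± 0.27, lower in both knockouts. mt-Atp8, with 7.5% shared sequence, was higher by 0.83 in each (edgeR adjusted p of 0.0464 and 0.0448), a call lost whichever library was left out. The other 9 mitochondrial members did not pass in either knockout.

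Among the nuclear genes, Cox7c also changed once a copy was added, although far less of its sequence is shared with that copy. It was at 19.2, 33.6 and 27.3 CPM in WT, 11.9, 3.25 and 4.08 in Per1KO and 8.68, 11.9 and 15.1 in Per2KO, and was called lower in Per1KO (-2.13 ± 0.54, edgeR adjusted p = 0.0323). Cox7c held 75.4% to 82.7% of its joint counts with Gm12338 in WT and 7.94% to 26.9% in the knockouts. Jointly the differences were 0.48 ± 0.54 and 0.54 ± 0.43, with the opposite sign. Gm12338 holds only 13.1% of the Cox7c words used to measure shared sequence. Gm10012 holds 25.3% of them, at no more than 0.54 CPM in any library, and was not added. Atp5h held 83.9% to 85.9% of its joint counts with Gm10250 in WT and 53.2% to 56.4% in the knockouts. Its joint differences were 0.14 and 0.11, and Gm10250 holds 27.8% of its words. Whether the joint values of Cox7c and Atp5h reflect reads split between copies was not tested. Of 4 tested mitochondrial transfer RNAs, 3 were lower and 1 higher in each knockout, with log2 values from -5.62 to 1.40 in Per1KO and from -6.71 to 1.55 in Per2KO. Read length, size selection and the treatment of reads with several matches were not given for the groups separately, and their part was not tested.

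**Figure D5:**
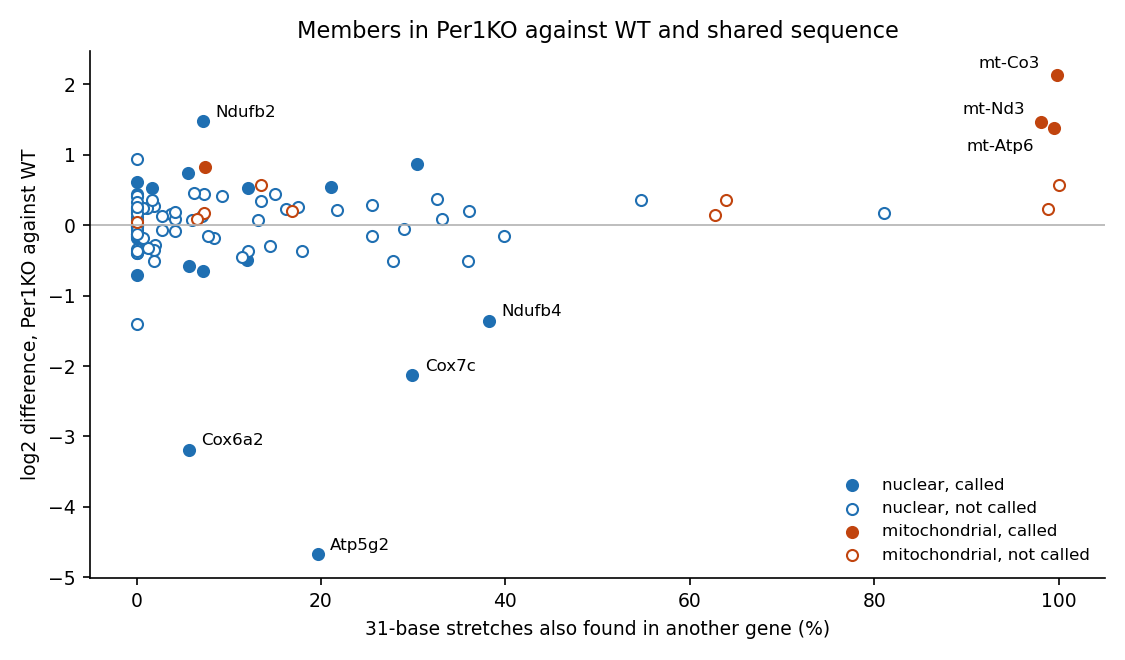
Log2 difference of each tested member from WT in Per1KO against the percent of its 31-base words shared with another gene. Members over 95% shared include mt-Co3 at 2.13 and mt-Nd3 at 1.46 in Per1KO, and Atp5g2, with 19.6% shared, lies at -4.67.

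The response to differentiation was compared between the knockouts and WT by an interaction of genotype with days 3 and 5 against day 0. No member passed (edgeR, 4.95% of all genes did, 3.5% upward and 1.45% downward), while 13 had an unadjusted p under 0.05, all with a lower response in the knockouts, and DESeq2 called 6, all lower. The estimate was negative for 77 of 88 nuclear and 13 of 13 mitochondrial members, with medians of -0.25 and -0.63 against 0.01 over all genes. Related genes outside the member list were mostly negative too. They included 17 of 19 regulators of mitochondrial genes (median -0.33) and 28 of 34 other assembly factors (-0.31). So were 12 of 13 genes of electron carriers and ubiquinone synthesis (-0.40) and 10 of 13 citrate cycle genes (-0.13). The WT side of the comparison rests on 1 library per day. Atp5g1 had the smallest p among the nuclear members (edgeR adjusted p = 0.0621). It was at 32.9, 61.1 and 42.7 CPM in WT, 52.7, 29.0 and 34.1 in Per1KO and 49.8, 26 and 35.6 in Per2KO. The day 3 value lay above day 0 in WT and below it in both knockouts. Uqcrq, a ubiquinone-binding subunit of complex III, had -1.13 (edgeR adjusted p = 0.0635), and mt-Nd1 had -0.93 (edgeR adjusted p = 0.0559).

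Genes that serve the same system were read against all genes, of which 46.1% passed from day 0 to day 5, 23.2% upward and 22.9% downward. Of 34 tested assembly factors outside the member list, 8 rose and 5 fell (edgeR, 38.2% called, below that share). Uqcc1, which assembles complex III, rose by 1.32, the complex IV assembly factor Cox14 by 1.01 and Sco1, a copper chaperone of complex IV, by 0.76, while Cox10, which makes heme A precursors, fell by 0.68. Of 19 regulators of mitochondrial genes, 1 rose and 1 fell (10.5% called). Tfb2m, a mitochondrial transcription factor, rose by 0.64, and Nrf1 fell by 0.80, from 46.4 to 57.2 CPM on day 0 to 27.2 to 31 on day 5. Tfam, which packages mitochondrial DNA, was at 50.7 to 83.7 CPM in all libraries. It was lower on day 3 than on day 0 (log2 -0.43, edgeR adjusted p = 0.0423) and did not pass on day 5. Of 13 genes of electron carriers and ubiquinone synthesis, 2 rose and 1 fell (23.1% called). Coq8a, which supports ubiquinone synthesis, was at 4.38, 111 and 173 CPM in WT, 0.466, 58.6 and 221 in Per1KO and 1.02, 52.1 and 164 in Per2KO, a fitted log2 rise of 7.23, and Coq9 rose by 0.97 while Pdss1 fell by 1.94.

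Of 13 citrate cycle genes, 2 rose and 3 fell (38.5% called). Sucla2 rose by 0.66, and Cs, Mdh2 and Suclg2 fell by 0.48, 0.48 and 0.54. Of 7 tested genes of mitochondrial membrane transport and energy transfer, Ucp2 rose by 3.18 and Slc25a5, an ADP/ATP carrier, fell by 0.88 (28.6% called). Against WT, Cycs, the gene of cytochrome c, was lower by -1.98 in Per1KO and -1.74 in Per2KO, at 22.6 to 34.9 CPM in WT and 5.98 to 15.8 in the knockouts. Cycs shares 32.0% of its 31-base words with other genes, and neither it nor Slirp was summed with its copies. Ucp2 was lower by -2.70 and -2.94. The regulator Slirp, which stabilises mitochondrial messages, was higher by 0.79 and 0.80, but 91.8% of its 31-base words are shared with another gene. Cox20 was higher by 2.44 and 2.72 at no more than 2.48 CPM, and Cox17 by 1.22 and 1.15.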

How the data were processed

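RNA from 9 C2C12 libraries, 1 per genotype and day, was poly(A)-selected and sequenced as single reads, per the labels' protocols. The values analysed are the authors' deposited gene counts, raw and whole-numbered. CASAVA 1.8, HISAT2 2.1.0 and build mm10 are named in the submitters' processing notes, while the counting program, its annotation, strand and its treatment of reads with several matches are not given in the sources used here. Labels gave every group. Ensembl IDs were matched to symbols in GENCODE M21 (GRCm38), and 47310 of 47729 had one.

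Genes with at least 1 CPM in 3 libraries were tested, 13324 in all and 101 of the 106 members. edgeR 4.0.16 (R 4.3.3) fitted genotype plus day to all 9 libraries by robust quasi-likelihood with trimmed-mean scaling, leaving 4 residual degrees of freedom, and a second fit added the interaction (3 degrees of freedom). p-values were adjusted over all tested genes and called below 0.05. DESeq2 1.42.0, other scalings and filters, left-out libraries, genotypes and days, and members with little shared sequence were the alternatives. Tests were checked on simulated counts. Ratios used exact permutation over libraries, and shares exact binomial intervals at 95%, which cover counting error only, with 3 counts as the limit of a count of 0. p-values measure the spread between these libraries, which may be technical. Shared sequence was the share of 31-base words found in another gene's longest transcript. Members and lists were chosen with earlier results of these data known. The genes named are the targets, the mitochondrial members, isoform sets and core subunits, then per comparison up to 3 called nuclear members with the largest rise and 3 with the largest fall among those averaging 10 CPM or more whose 3 library pairs share a direction, and the most and least changed of each complex. Other called members, and the genes of the other lists, were named after their values were seen. Some members of these lists are not reported here by name.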

Additional observations from a re-analysis of the deposited data

Results flagged for a closer look

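In 8 members, days 3 and 5 both moved one way from day 0 in WT and the opposite way in both knockouts. The difference of the responses, knockouts minus WT (log2), was tested as an interaction in edgeR over all genes, and none of the 8 passed after adjustment. For Atp5g1, a c-ring gene of ATP synthase, it was -1.391 (adjusted p = 0.0621). For Ndufaf4 and Ndufaf2, assembly factors of complex I, it was -0.885 (adjusted p = 0.118) and -0.537 (adjusted p = 0.218). For the complex I subunits Ndufs6, Ndufa12 and Ndufa10 it was -0.727 (adjusted p = 0.114), -0.637 (adjusted p = 0.344) and -0.434 (adjusted p = 0.168). For Atp5o, in the stalk of ATP synthase, it was -0.535 (adjusted p = 0.210). For Sdha of complex II it was 0.259 (adjusted p = 0.405), the one positive value among the 8. Genotype, depth and whatever the suffix of the WT titles marks cannot be told apart in these values.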

How the results depend on the processing

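No analysis paired by replicate number was possible because each genotype and day has 1 library, so the groups share fewer than 2 replicate numbers. The fit of genotype plus day itself compares days within genotypes and genotypes within days. Of 274 summary values under alternatives other than leaving out 1 library, 196 stayed within a margin of the main value. For counts of calls the margin was a fixed fold, and for summed levels the SD over genotypes. For isoform shares it was the Clopper-Pearson interval, and for ratio tests the same sign and side of the threshold. The rest follow, and their causes were not tested. Most settings that leave out libraries also leave fewer residual degrees of freedom, and calls over all genes moved in them too.

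For day 3 against day 0, 12 nuclear members were called higher, 13.6% of those tested against 18.1% of all genes. These became 1 without Per1KO and 2 without Per2KO, and the 6 mitochondrial calls 2 in each case and 2 with members under 10% shared. Over all genes, higher calls went from 2418 to 702 without Per1KO and 822 without Per2KO. Lower calls on members, 0 in all, became 15 without WT, where 3706 of 12905 genes were lower. Leaving out 1 library gave 5 to 14 nuclear higher calls (5 without Per1KO day 0, 7 without Per2KO day 0 or day 3), 4 to 6 mitochondrial and 0 to 10 lower (3 without WT day 0, 10 without WT day 3).

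For day 5 against day 0, the 18 nuclear higher calls became 41 without WT, 1 without Per1KO and 5 without Per2KO, and the 13 mitochondrial ones 6 without Per1KO, 8 without Per2KO and 4 under 10% shared, where 4 genes qualify. Over all genes, higher calls went from 3093 to 4166 without WT, 1213 without Per1KO and 1523 without Per2KO. Lower calls on members, 0 in all, became 10 without WT, 1 without a level filter, 1 without day 3 and 2 with DESeq2. Leaving out 1 library gave 5 to 32 nuclear (32 without WT day 3, 9 without Per1KO day 0, 5 without Per1KO day 5, 10, 11 and 7 without Per2KO day 0, day 3 and day 5), 9 to 13 mitochondrial and 0 to 5 lower (4 without WT day 0, 5 without WT day 3, 1 without Per2KO day 3). For day 5 against day 3, where no member was called, nuclear higher calls became 3 without WT and 2 without day 0, and mitochondrial ones 4 without WT and 3 with DESeq2. Leaving out 1 library gave 0 to 1 nuclear (1 without Per2KO day 0) and 0 to 4 mitochondrial (4 without WT day 0).

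For Per1KO against WT, the 8 nuclear higher calls became 2 without Per2KO, 4, 3 and 1 without day 0, 3 and 5, and 5 under 10% shared. The 4 mitochondrial ones became 2 at 10 CPM or more, 2 without Per2KO, 2 without each day, and 1 under 10% shared. The 8 lower calls became 4 without a level filter, 3 without Per2KO, 2 without day 3, 2 without day 5 and 4 under 10% shared. Over all genes, the 1234 higher calls went to 641 without Per2KO and to 1261, 526 and 424 without day 0, 3 and 5. The 1341 lower calls went to 721 without Per2KO, 364 without day 3 and 261 without day 5. Leaving out 1 library gave 1 to 26 nuclear higher calls (26 without WT day 3, 2 without WT day 5, 1, 3 and 1 without Per1KO day 0, 3 and 5, and 5, 4 and 4 without those of Per2KO). It gave 2 to 4 mitochondrial (2 without Per1KO day 5) and 2 to 14 lower (14 without WT day 0, 3 without WT day 3, 2 without Per1KO day 3 or 5, 5 without Per2KO day 3).

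For Per2KO against WT, the 6 nuclear higher calls became 2 without Per1KO, 2 without day 3 and 1 without day 5. The 4 mitochondrial ones became 2 at 10 CPM or more, 2 without Per1KO, 2 without each day, and 1 under 10% shared. The 8 lower calls became 4 without Per1KO, 2 without day 3, 2 without day 5, 13 with DESeq2 and 4 under 10% shared. Over all genes, the 1241 higher calls went to 574 without Per1KO, 459 without day 3 and 432 without day 5. The 1411 lower calls went to 655, 348 and 321 in these settings, and to 1885 with DESeq2. Leaving out 1 library gave 1 to 21 nuclear higher calls (21 without WT day 3, 2 without WT day 5, 3 without Per1KO day 0 or 5, 2, 1 and 2 without Per2KO day 0, 3 and 5). It gave 2 to 4 mitochondrial (2 without Per2KO day 3) and 2 to 17 lower (17 without WT day 0, 2 without Per2KO day 3, 4 without WT day 3, Per1KO day 3, Per1KO day 5 or Per2KO day 5). For the interaction, with no calls, nuclear higher calls became 1 without Per2KO, and lower calls 3 without a level filter, 1 without Per1KO, 1 without Per2KO and 6 with DESeq2.

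The rise of the mitochondrial to nuclear ratio, 0.774, was 0.737 under 10% shared, with an exact permutation p of 0.0741. The log2 change of summed levels by day 5 depended on the summary. For nuclear members, 0.083 in scaled CPM, it was -0.082 as a share of counts and 0.245 as the median of log2 CPM, and for mitochondrial members, 1.085, the median gave 1.827. As share and median, complex I gave 0.087 and 0.338 (from 0.252), assembly factors -0.221 and -0.285 (from -0.057), complex III 0.018 and 0.293 (from 0.183, with 0.248 per kilobase), complex IV 0.004 and 0.076 (from 0.168, with 0.312 under 10% shared) and complex V -0.221 and 0.312 (from -0.056). Isoform shares per kilobase on day 5 were 9.90% and 7.38% for Cox6a2 in Per1KO and Per2KO, 3.31% and 3.14% for Cox7a1, and 21.9%, 9.14% and 7.73% for Cox8b in WT, Per1KO and Per2KO.

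Of 69 calls on named members, 38 were lost on leaving out at least 1 library, and none changed sign. In both knockouts the calls on Atp5g2, Ndufb2, Ndufb4, mt-Co3 and mt-Atp6 held each time. Depth limits WT most: members near 1 CPM there rest on a few counts.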
